A study of Mus musculus with 6 samples.

Results

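The genes described here are 42 mouse genes of DNA replication and S phase, measured in fibrotic liver with and without alendronate nanogels. They were taken by symbol from a raw count table of 41388 Ensembl genes and cover replication licensing, helicase activation, synthesis at the fork, nucleotide supply, chromatin copying, fork protection, repair and entry into S phase. All 42 symbols matched 1 row each, and all 42 passed the filter on low counts that left 15939 genes for testing. All 42 enter the counts of genes that were lower or higher, and the promoter counts cover those with a promoter window.

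Cells copy their DNA in ordered steps. In G1 the origin recognition complex, Cdc6 and Cdt1 load the Mcm2 to Mcm7 helicase onto origins, and at the start of S phase kinases, Cdc45 and the GINS complex switch it on. DNA polymerases, with Pcna as their sliding clamp, then copy both strands while nucleotide enzymes supply the building blocks. Cyclin E and E2F transcription factors drive the genes of this programme, which is nearly silent in resting adult liver and is switched on when hepatocytes or other liver cells divide after injury.

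All mice were BALB/c with liver fibrosis from 5 weeks of carbon tetrachloride (CCl4), a liver toxin, in both groups. The AL/NP group (n = 3), whose titles add the word high, had received nanogels loaded with alendronate, a bisphosphonate, at 4 mg/kg, with 2 injections per week in the last 2 weeks. The control group (n = 3) is labelled untreated and fibrotic, although the labels repeat the injection protocol for all 6 samples. No uninjured liver and no empty nanogel was analysed here, so drug, carrier and injection cannot be told apart. Tissue came from each liver lobe, and the labels give neither age nor sex, nor say outright that replicates are separate animals, so p-values may cover technical spread only. In whole liver, fewer dividing cells and less RNA per dividing cell cannot be told apart.

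Libraries held 30554483 to 39838428 counts. A count of 3 corresponded to 0.0826 to 0.104 CPM (counts scaled to library size, with TMM factors), a limit that covers counting error only. Mitochondrially encoded genes took 26.7% of counts in control replicate 3 and 11.96% to 19.82% in the other 5 libraries. All 8 hepatocyte markers were present in every library, with Alb between 36814 and 53586 CPM. No pair of libraries agreed within sampling noise.

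Promoter sequence is shown before the values, because E2F factors bind many replication genes near their start. The RefSeq promoter table (build GRCm38.p6, 250 bases before to 50 after each start) held 35 of the 42 genes. It was searched on both strands for the E2F-type words TTTGGCGC, TTTCCCGC, TTTGCCGC and TTTCGCGC, for TTTGAA (the cell cycle homology region, CHR, of many mitotic genes) and for CCAAT. An E2F-type word stood in the window of 15 of 35 replication genes (42.9%), against 4.44% of 10956 tested genes and 2.6% of all 27025 genes in the table. TTTGAA stood in 4 of 35 (11.4%), against 14.8% of tested genes and 14 of 20 mitotic genes (70%), and CCAAT in 20 of 35 (57.1%), against 42.7% of tested genes. The E2F-type words can overlap one another on opposite strands; a match is a description and not a shown binding site. The windows below read along the matching strand, with the E2F-type word in capitals, and are shown for the licensing genes that hold one and for 3 of the genes with large differences.
Orc1 (chr4:108579417-108579444, minus strand): ggagaaaactTTTCGCGCcactaaccga
Cdc6 (chr11:98908003-98908030, minus strand): ccccaggcgaTTTCCCGCtctccaccgg
Cdt1 (chr8:122568037-122568064, plus strand): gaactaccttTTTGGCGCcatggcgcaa
Mcm3 (chr1:20820276-20820303, plus strand): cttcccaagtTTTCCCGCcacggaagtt
Mcm5 (chr8:75109350-75109377, minus strand): ggctggacgtTTTGGCGCgaaagttctt
Mcm6 (chr1:128359735-128359762, minus strand): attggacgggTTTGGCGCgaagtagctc
Mcm7 (chr5:138171850-138171877, minus strand): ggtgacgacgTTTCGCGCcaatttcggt
Dtl (chr1:191575535-191575562, minus strand): gtgacgtcagTTTGGCGCggagtttggc
Clspn (chr4:126556991-126557018, minus strand): aagttcgagcTTTCGCGCccagacgcgg
Uhrf1 (chr17:56304118-56304145, plus strand): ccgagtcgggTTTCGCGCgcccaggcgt

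The word in Dtl ended at the base before the annotated start of the gene. Its whole window also held a CCAAT box, and is printed with those of Uhrf1 and Chaf1a because these are, with Timeless, the 4 genes with the smallest p-values among those in the table. Uhrf1 has 2 windows; the one 992 bases downstream of the GENCODE gene start held an E2F-type word and the other held CCAAT only. The window of Chaf1a held CCAAT and no E2F-type word. The windows of Cdc6 and Mcm7 lay 350 and 539 bases downstream of the GENCODE start. That of Timeless lay 6001 bases downstream of its GENCODE start and is not printed. Capitals mark E2F-type words.
Dtl (chr1:191575495-191575794, minus strand): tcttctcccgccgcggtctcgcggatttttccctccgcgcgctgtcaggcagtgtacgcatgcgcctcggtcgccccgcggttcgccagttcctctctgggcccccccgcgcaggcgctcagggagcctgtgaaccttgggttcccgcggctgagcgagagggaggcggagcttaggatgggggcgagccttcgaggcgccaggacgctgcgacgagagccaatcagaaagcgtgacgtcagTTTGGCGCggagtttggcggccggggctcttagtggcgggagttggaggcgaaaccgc
Uhrf1 (chr17:56303087-56303386, plus strand): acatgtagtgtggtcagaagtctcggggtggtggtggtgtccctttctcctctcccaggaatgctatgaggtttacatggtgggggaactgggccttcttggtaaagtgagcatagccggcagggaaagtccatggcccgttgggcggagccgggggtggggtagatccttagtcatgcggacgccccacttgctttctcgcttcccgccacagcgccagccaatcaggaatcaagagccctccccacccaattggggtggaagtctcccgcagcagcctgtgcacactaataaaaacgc
Uhrf1 (chr17:56304063-56304362, plus strand): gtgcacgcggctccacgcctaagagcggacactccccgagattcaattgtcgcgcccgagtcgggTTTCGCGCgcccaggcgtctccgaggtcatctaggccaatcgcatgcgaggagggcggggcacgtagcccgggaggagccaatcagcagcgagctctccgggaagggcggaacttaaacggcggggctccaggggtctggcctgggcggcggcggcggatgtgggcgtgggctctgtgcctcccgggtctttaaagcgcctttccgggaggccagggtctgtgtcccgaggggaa
Chaf1a (chr17:56040166-56040465, plus strand): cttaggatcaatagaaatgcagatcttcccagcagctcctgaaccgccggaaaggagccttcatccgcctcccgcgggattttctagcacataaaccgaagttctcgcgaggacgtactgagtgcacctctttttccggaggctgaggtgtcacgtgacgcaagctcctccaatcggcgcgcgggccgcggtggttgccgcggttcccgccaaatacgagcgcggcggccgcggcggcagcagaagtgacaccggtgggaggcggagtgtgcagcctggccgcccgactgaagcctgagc

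Fold changes were set beside these matches as a description. The 15 replication genes with an E2F-type word had a median log2 fold change of -0.88, and the 20 with a window and no such word had -0.68. Among 471 other tested genes with the word the median was -0.05, and 14.6% were lower at an unadjusted p of 0.05, against 10.3% of 10450 other tested genes without it.

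Messenger RNA of most of the 42 genes was lower in fibrotic liver after AL/NP. The 42 were chosen with earlier results of these data known, so the shares below are a description. Of the 42 genes, 40 had a log2 fold change below 0, where 50% of all tested genes did, and the median was -0.73 against -0.00025 over all tested genes. The groups did not overlap in 34 genes, all lower with AL/NP; 15% of all tested genes had no overlap in that direction and 14.5% in the other. At an unadjusted p of 0.05 (edgeR quasi-likelihood test), 31 genes were lower, against 10.3% of all tested genes, and 0 were higher, against 9.37%.

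After Benjamini-Hochberg adjustment over all 15939 genes, edgeR called 1 of the 42, Dtl, which fell; 0.0188% of tested genes were called in that direction. It called 0 of the 42 higher, against 0.0627%. At an adjusted p of 0.1 it called 8, all lower (Dtl, Timeless, Uhrf1, Pole, Rmi2, Chaf1a, Tk1 and Clspn), against 0.339% of tested genes, and 0 higher, against 0.552%. DESeq2 called 21 of the 42 lower at an adjusted p of 0.05 and 0 higher, against 2.48% and 2.59% of the genes it adjusted. Of the 42 genes, 23 were among the 1000 smallest p-values of the table. The call of Dtl at 0.05 was lost when any 1 of the 6 libraries was left out, while its log2 fold change stayed between -2.70 and -2.26.

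**Figure D1:**
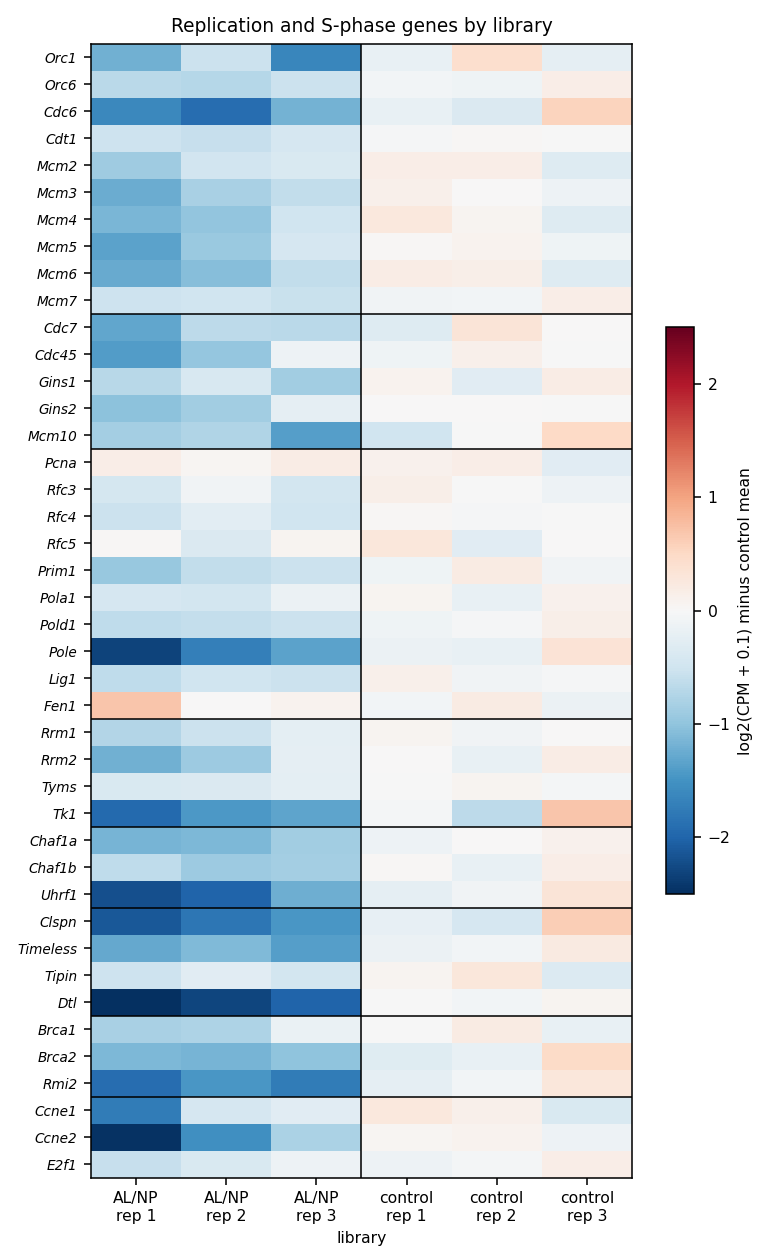
Heat map of log2(CPM + 0.1) minus the control mean for the 42 genes (rows, in order of role) in the 3 AL/NP and 3 control libraries (columns), with blue for lower and red for higher. The AL/NP columns are blue in nearly every row, while the rows of Pcna, Rfc5 and Fen1 are pale or mixed.

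The origin licensing genes chosen for the list were lower throughout. All 10 had non-overlapping groups and an unadjusted p under 0.05 (edgeR), with log2 fold changes from -1.69 to -0.51. None passed at an adjusted p of 0.1 (edgeR), and DESeq2 called 7. Of all tested genes, 15% were lower without overlap and 10.3% were lower at an unadjusted p of 0.05 (edgeR). DESeq2 called 2.48% of the genes it adjusted lower. Counts in this role and those below stand beside these shares, and each role is a part of the chosen list. Cdc6, which loads the helicase together with Cdt1, measured 0.799, 0.633 and 1.10 CPM in AL/NP replicates 1 to 3 and 2.30, 2.02 and 3.91 CPM in control replicates 1 to 3. Every AL/NP library thus lay below every control, and the log2 fold change was -1.69 (SE 0.364, adjusted p = 0.108, edgeR).

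The Mcm2 to Mcm7 genes encode the 6 subunits of the replicative helicase. Mcm3 measured 7.54, 10.2 and 11.8 CPM with AL/NP and 19.7, 18.2 and 16.4 CPM in controls. Its AL/NP mean was 54.4% of the control mean, at a log2 fold change of -0.88 (SE 0.188, adjusted p = 0.108, edgeR). Mcm6 measured 3.61, 4.18 and 5.74 CPM with AL/NP and 9.99, 9.75 and 6.99 CPM in controls, at -0.98 (SE 0.239, adjusted p = 0.126, edgeR). In both genes the groups were apart, and AL/NP replicate 1 was the lowest library.

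Of the other helicase subunits, Mcm4 and Mcm5 lay close to Mcm3 and Mcm6, and Mcm2 and Mcm7 differed less from control. Log2 fold changes were -0.87 for Mcm4, -0.86 for Mcm5, -0.59 for Mcm2 and -0.53 for Mcm7. Of the 6 subunits, DESeq2 called Mcm3, Mcm4, Mcm5, Mcm6 and Mcm7 lower. The remaining loading factors on the list were Orc1 at -1.25, Orc6 at -0.66 and Cdt1 at -0.51. Outside the list, the origin recognition subunits Orc2, Orc3, Orc4 and Orc5 were at 0.16, -0.29, -0.53 and 0.03. Orc1 rested on 40 counts with AL/NP and 99 in controls. Cdt1 had tight groups, 6.71 to 7.46 CPM against 9.91 to 10.30 CPM.

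Helicase activation genes were also lower in all 5 cases, without overlap between groups. Mcm10, which helps to switch the loaded helicase on, measured 13.4, 14.2 and 9.20 CPM with AL/NP and 17.2, 24.1 and 34.1 CPM in controls (log2 fold change -1.03, SE 0.267, adjusted p = 0.135, edgeR). Its controls ranged widely, and all lay above the AL/NP libraries. Cdc7, the catalytic subunit of the kinase that fires origins, measured 2.05, 3.27 and 3.25 CPM with AL/NP and 4.14, 6.52 and 5.25 CPM in controls (-0.89, SE 0.274, adjusted p = 0.160, edgeR).

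Cdc45 and GINS form the active helicase with the Mcm ring. Gins1 measured 3.23, 3.99 and 2.87 CPM with AL/NP and 5.63, 4.36 and 6.09 CPM in controls (-0.67, SE 0.233, adjusted p = 0.191, edgeR). Gins2, at -0.69, had nearly equal controls of 2.42 to 2.46 CPM, and overlaps Gse1 on the opposite strand. Cdc45 was at -0.77 with an unadjusted p of 0.0657 (edgeR), and its highest AL/NP library, 1.89 CPM, lay just under the lowest control, 1.92 CPM.

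Genes of DNA synthesis at the fork were divided. Of 10, 8 were below 0, 4 had an unadjusted p under 0.05, and 5 had groups that overlapped. Pole, the catalytic subunit of the leading-strand polymerase epsilon, measured 1.46, 2.28 and 2.96 CPM with AL/NP and 6.89, 6.71 and 9.78 CPM in controls. Its AL/NP mean was 28.7% of control, the lowest share in this role, with a log2 fold change of -1.80 (chromosome 5, 110286306 to 110337474; SE 0.296, adjusted p = 0.0783, edgeR; 2.57e-06, DESeq2).

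Pold1, the catalytic subunit of polymerase delta, measured 13.3, 13.6 and 14.2 CPM with AL/NP and 19.2, 20.2 and 23.0 CPM in controls (-0.60, SE 0.138, adjusted p = 0.121, edgeR). Prim1, the primase that starts each new strand, measured 7.02, 8.89 and 9.40 CPM with AL/NP and 12.8, 15.7 and 12.8 CPM in controls (-0.70, SE 0.175, adjusted p = 0.128, edgeR). Both had narrow groups that did not overlap. Lig1, which seals Okazaki fragments, was at -0.56, Rfc4 at -0.44, Pola1 at -0.35 and Rfc3 at -0.33. Rfc5, another subunit of the clamp loader, was at -0.09 with overlapping groups, and its sign turned under 3 alternatives: 0.032 when counts were scaled by library totals alone (which moved the median of all tested genes to 0.133), 0.035 with AL/NP replicate 2 left out, and 0.065 with control replicate 1 left out.

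Pcna and Fen1 were the 2 genes on the other side of 0. Pcna (chromosome 2, 132249162 to 132253314), the sliding clamp, measured 29.6, 27.4 and 29.9 CPM with AL/NP and 28.6, 29.7 and 21.6 CPM in controls (log2 fold change 0.12, SE 0.157, adjusted p = 0.684, edgeR). Control replicates 1 and 2 lay within the AL/NP range, and without control replicate 3 the log2 fold change was -0.0113. Fen1 (chromosome 19, 10199132 to 10204169), the flap endonuclease of Okazaki fragment maturation, measured 17.4, 10.8 and 11.4 CPM with AL/NP and 10.3, 12.5 and 9.66 CPM in controls (0.29, SE 0.214, adjusted p = 0.462, edgeR). Only AL/NP replicate 1 stood above the controls, and without it the value was 0.04. Neither gene differed beyond the spread of its libraries. Exons of Fen1 overlap those of Gm10143 (1909 bases) and Tmem258 (75 bases) on the opposite strand.

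**Figure D2:**
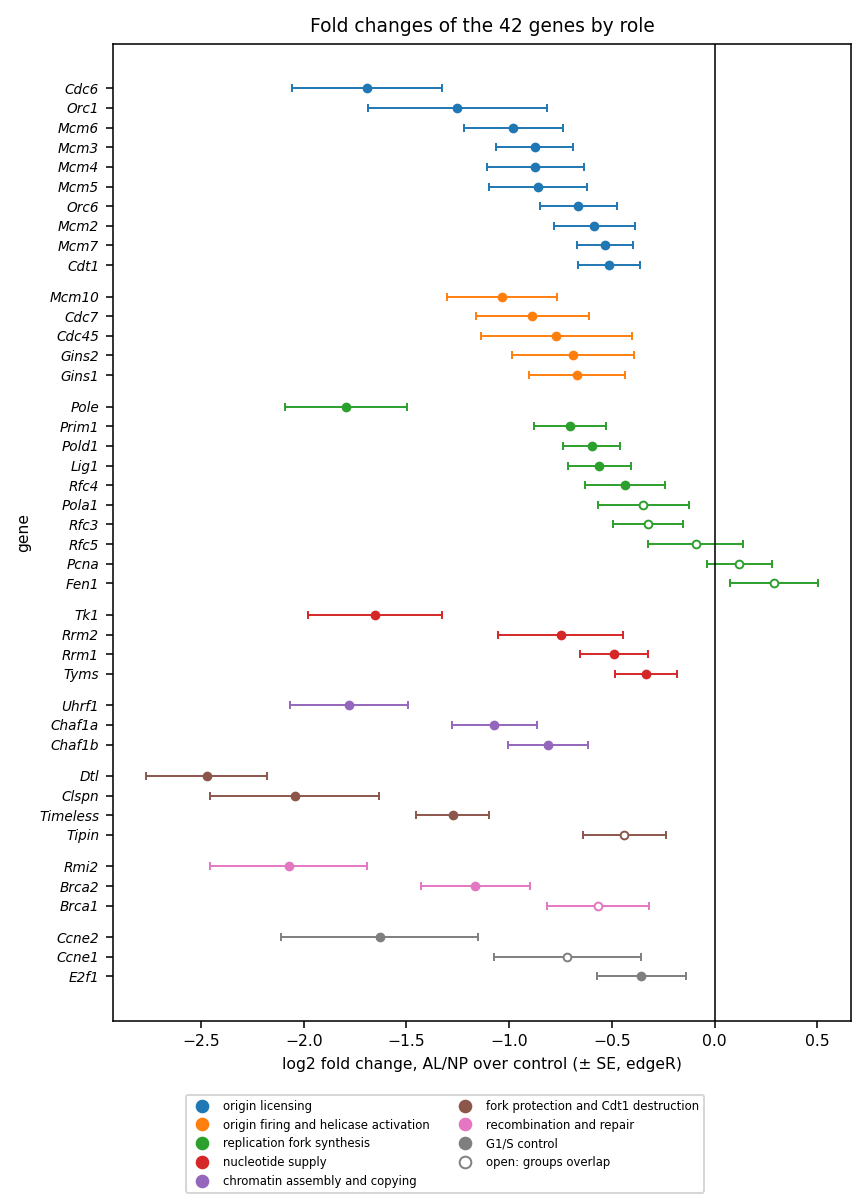
Log2 fold change of AL/NP over control (horizontal axis, ± SE from edgeR) for each of the 42 genes, coloured by role; open symbols mark genes whose groups overlap. All but Pcna and Fen1 lie left of 0, and Dtl lies furthest left at -2.47.

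Nucleotide supply genes were lower in 4 of 4 cases without overlap. Tk1 (chromosome 11, 117815526 to 117826092), which salvages thymidine, measured 6.78, 9.66 and 10.4 CPM with AL/NP and 25.6, 16.7 and 42.4 CPM in controls (log2 fold change -1.65, SE 0.326, adjusted p = 0.0981, edgeR; 1.21e-04, DESeq2). Its controls spread over a wide range, yet the lowest lay above the highest AL/NP library. Rrm1 and Rrm2 encode the large and small subunits of ribonucleotide reductase.
Rrm1 measured 9.98, 11.4 and 14.0 CPM with AL/NP and 17.4, 15.6 and 16.7 CPM in controls (-0.49, SE 0.165, adjusted p = 0.184, edgeR). Rrm2 measured 1.49, 1.84 and 3.02 CPM with AL/NP and 3.56, 3.12 and 4.04 CPM in controls (-0.75, SE 0.304, adjusted p = 0.228, edgeR). AL/NP replicate 3 was the highest treated library in both. Tyms, thymidylate synthase, was at -0.33 with an unadjusted p of 0.0519 (edgeR).

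The chromatin genes were all lower, and DESeq2 called all 3. Uhrf1 (chromosome 17, 56303321 to 56323486), which brings the maintenance methyltransferase Dnmt1 to newly copied DNA, measured 2.61, 3.00 and 5.19 CPM with AL/NP and 10.4, 11.5 and 15.4 CPM in controls (log2 fold change -1.78, SE 0.288, adjusted p = 0.0783, edgeR; 2.17e-06, DESeq2). With the replicate number as a block, edgeR called Uhrf1 as well as Dtl. Chaf1a and Chaf1b encode the chromatin assembly factor that places histones behind the fork. Chaf1a measured 2.61, 2.67 and 3.22 CPM with AL/NP and 5.46, 6.02 and 6.43 CPM in controls (-1.07, SE 0.206, adjusted p = 0.0962, edgeR). Chaf1b measured 4.62, 3.798 and 3.97 CPM with AL/NP and 7.32, 6.32 and 8.08 CPM in controls (-0.81, SE 0.196, adjusted p = 0.124, edgeR). Exons of Chaf1a overlap those of Ubxn6 on the opposite strand over 2542 bases, and the strand setting of the counting is not given in the sources used here.

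Among the genes of fork protection and Cdt1 destruction, 3 of 4 were lower without overlap. Dtl, the member for Cdt1 destruction, had the lowest log2 fold change of the 42. Dtl (chromosome 1, 191537356 to 191575544, minus strand) encodes the receptor of the CRL4 ubiquitin ligase that destroys Cdt1 on replicating chromatin. It measured 0.556, 0.881 and 1.10 CPM with AL/NP and 4.74, 4.50 and 5.001 CPM in controls, from 86 and 489 counts in all. It fell to 17.8% of the control mean, at a log2 fold change of -2.47 (SE 0.293, adjusted p = 0.0493, edgeR; 9.96e-12, DESeq2). The lowest control lay far above the highest AL/NP library.

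Timeless and Tipin form the complex that steadies the fork, and Clspn links it to the checkpoint kinase Chek1. Timeless (chromosome 10, 128232065 to 128252941) measured 4.97, 5.61 and 4.64 CPM with AL/NP and 10.97, 11.7 and 14.3 CPM in controls (-1.28, SE 0.178, adjusted p = 0.0579, edgeR; 2.31e-06, DESeq2). Clspn (chromosome 4, 126556935 to 126593903) measured 0.313, 0.413 and 0.551 CPM with AL/NP and 1.46, 1.24 and 2.64 CPM in controls (-2.05, SE 0.412, adjusted p = 0.0998, edgeR). Clspn rested on 43 and 181 counts. Tipin, the partner of Timeless, was at -0.44, its groups overlapped, and its unadjusted p was 0.0587 (edgeR), whereas Timeless did not overlap; a difference between these partners was not tested.

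Repair genes were lower in 3 of 3 cases. Rmi2 (chromosome 16, 10835059 to 10892966), of the complex that dissolves double Holliday junctions with Blm, measured 0.174, 0.275 and 0.203 CPM with AL/NP and 0.775, 0.884 and 1.15 CPM in controls (-2.07, SE 0.383, adjusted p = 0.0909, edgeR). It had only 22 and 96 counts in all. Brca2, which acts in homologous recombination, measured 2.33, 2.26 and 2.55 CPM with AL/NP and 4.22, 4.58 and 7.24 CPM in controls (-1.17, SE 0.266, adjusted p = 0.120, edgeR). Brca1, its upstream partner, measured 2.99, 3.08 and 4.70 CPM with AL/NP and 5.23, 6.10 and 4.66 CPM in controls (-0.57, SE 0.249, adjusted p = 0.252, edgeR). The groups of Brca1 touched, with AL/NP replicate 3 just above control replicate 3.

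Of the genes that drive entry into S phase, Ccne2, an E-type cyclin, measured 0.139, 0.358 and 0.667 CPM with AL/NP and 1.264, 1.30 and 1.12 CPM in controls (-1.63, SE 0.479, adjusted p = 0.151, edgeR). With AL/NP replicate 3 left out, the value for Ccne2 moved to -2.25. Its counts were 40 and 127, and it overlaps Ints8 on the opposite strand. Ccne1, the other E-type cyclin, measured 3.09, 7.95 and 8.70 CPM with AL/NP and 12.9, 11.6 and 8.11 CPM in controls (-0.72, SE 0.356, adjusted p = 0.293, edgeR). The groups of Ccne1 overlapped, and AL/NP replicate 1 was far below the other treated libraries. E2f1, a transcription factor of the programme, measured 3.27, 3.74 and 4.50 CPM with AL/NP and 4.51, 4.72 and 5.53 CPM in controls (-0.36, SE 0.217, adjusted p = 0.372, edgeR). The groups of E2f1 did not overlap, but AL/NP replicate 3 and control replicate 1 nearly met.

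**Figure D3:**
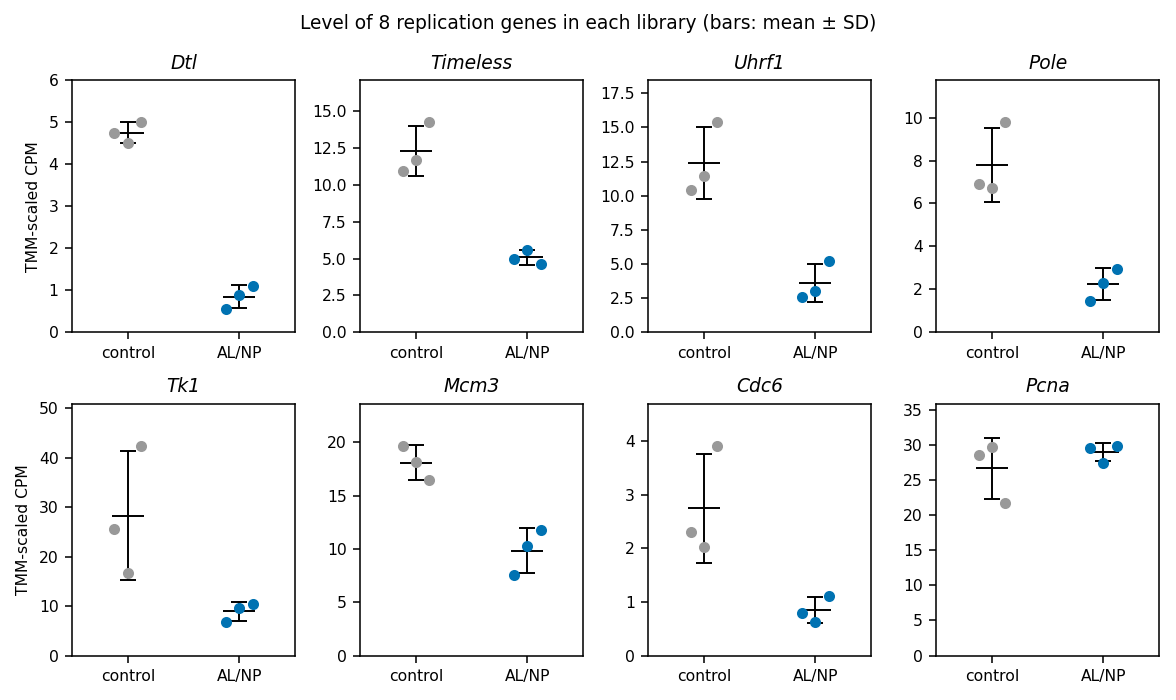
TMM-scaled CPM of 8 genes in each library (points), with the mean and SD of each group (bars, n = 3), on axes that start at 0. Dtl, Timeless, Uhrf1, Pole, Tk1, Mcm3 and Cdc6 show separate groups, and Pcna shows overlapping groups between 21.6 and 29.9 CPM.

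The size of the difference varied among the 42 genes. In 13 the AL/NP level was at least 2-fold lower, which held for 2.97% of all tested genes. The 11 genes with a control mean under 5 CPM had a median log2 fold change of -1.25, and the 31 above that level had -0.67. Over all tested genes these medians were 0.04 and -0.01. Across the 42 genes Spearman's rho between control level and log2 fold change was 0.264, a description over genes that share the same libraries.

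Levels per kilobase of exon put Pcna highest in controls, at 11.1 CPM per kilobase, followed by Mcm7 at 5.49 and Tk1 at 5.43. With AL/NP Pcna was still at 12.1 CPM per kilobase, whereas Tk1 was at 1.72. Dtl, Orc1, Clspn and Rmi2 had the lowest control levels, from 0.208 to 0.346 CPM per kilobase. The gene with the strongest level was therefore one of the 2 that were not lower.

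The libraries of a group were not alike. Averaged over the 42 genes, log2 CPM relative to the control mean was -1.08 in AL/NP replicate 1, -0.85 in replicate 2 and -0.69 in replicate 3, against -0.03, -0.02 and 0.05 in control replicates 1 to 3. AL/NP replicate 1 was the lowest treated library for 27 of the 42 genes and AL/NP replicate 3 the highest for 29. Among controls, replicate 3 was the highest for 19 and the lowest for 15. It was thus at an extreme most often, but on both sides. Without it, the log2 fold change of Tk1 moved from -1.65 to -1.24 and that of Mcm6 from -0.98 to -1.13. The median moved from -0.73 to -0.74. Leaving out each library in turn left 25 to 31 genes lower at an unadjusted p of 0.05 (edgeR) and moved the median between -0.92 and -0.61.

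Other replication genes outside the 42 were mixed. Of 71 listed, 70 were tested, 49 were below 0, 21 were above 0 and the median log2 fold change was -0.28. The groups overlapped in 39. They did not overlap in 27 that were lower, against 15% of all tested genes, and in 4 that were higher, against 14.5%. The summed levels overlapped, at 905 to 935 CPM with AL/NP and 890 to 1003 CPM in controls. Averaged over genes, log2 CPM relative to the control mean did not overlap. It was -0.45 to -0.25 with AL/NP and -0.01 to 0.02 in controls. A difference between these genes and the 42 was not tested. At an unadjusted p of 0.05 (edgeR), 24 were lower, against 10.3% of all tested genes, and 2 were higher, against 9.37%. DESeq2 called 6, all lower, against 2.48% of the genes it adjusted. Atad5, which unloads Pcna from DNA behind the fork, measured 0.730, 1.46 and 1.45 CPM with AL/NP and 4.08, 4.58 and 4.597 CPM in controls (-1.85, SE 0.303, adjusted p = 0.0783, edgeR). Hells, a chromatin remodeller that aids DNA methylation, was at -1.21 (adjusted p = 0.0903, edgeR), Topbp1, an activator of the kinase Atr, at -0.77 and Wdhd1, which couples polymerase alpha to the helicase, at -1.34. Samhd1, which breaks down deoxynucleotides, was the higher gene with the smallest p, at 0.51 (adjusted p = 0.159, edgeR).

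Regulators of the step into S phase were counted in the same way. Of 12 activators outside the 42, 8 were below 0 with a median of -0.15. At an unadjusted p of 0.05 (edgeR), 3 were lower, against 10.3% of all tested genes. These 3 were Cdk2, the kinase partner of cyclin E, at -0.59, Skp2, a ubiquitin ligase receptor, at -0.96, and E2f3 at -0.56. Of 17 tested inhibitors, 13 were below 0 with a median of -0.45. Gmnn, which blocks Cdt1 outside G1, was at -0.79 (adjusted p = 0.103, edgeR; 0.00686, DESeq2), and E2f7, a repressor that E2F factors switch on, at -1.03. Cdkn1a, the inhibitor of cyclin-dependent kinases induced by p53, went the other way. It measured 196, 113 and 68.1 CPM with AL/NP and 64.2, 60.6 and 23.0 CPM in controls (1.35, SE 0.469, adjusted p = 0.196, edgeR; 0.0323, DESeq2). The AL/NP libraries all lay above the controls, though AL/NP replicate 3 and control replicate 1 were close.

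Mitosis and G2/M genes, the next stage of the cycle, were set beside the 42. Of 25, 20 were below 0 with a median log2 fold change of -0.52, 6 were lower at an unadjusted p of 0.05 (edgeR; 10.3% of all tested genes), and the groups did not overlap in 4, close to the 15% of all tested genes. The replication genes had 31 of 42 and 34 of 42 by the same measures. Whether the lists differ was not tested. Summed over the mitotic genes, levels were 28.4 to 44.0 CPM with AL/NP and 43.9 to 64.3 CPM in controls; summed over the 42 they were 237 to 276 CPM and 402 to 430 CPM. Cdk1, the mitotic kinase, measured 2.71, 4.05 and 4.21 CPM with AL/NP and 8.96, 6.02 and 6.93 CPM in controls (-0.99, SE 0.249, adjusted p = 0.128, edgeR). Mki67, the common marker of dividing cells, measured 3.20, 2.86 and 6.59 CPM with AL/NP and 6.86, 6.16 and 12.98 CPM in controls (-1.04, SE 0.391, adjusted p = 0.208, edgeR), with overlapping groups. Mad2l1 and Bub1, of the spindle checkpoint, were at -0.60 and -1.31.

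**Figure D4:**
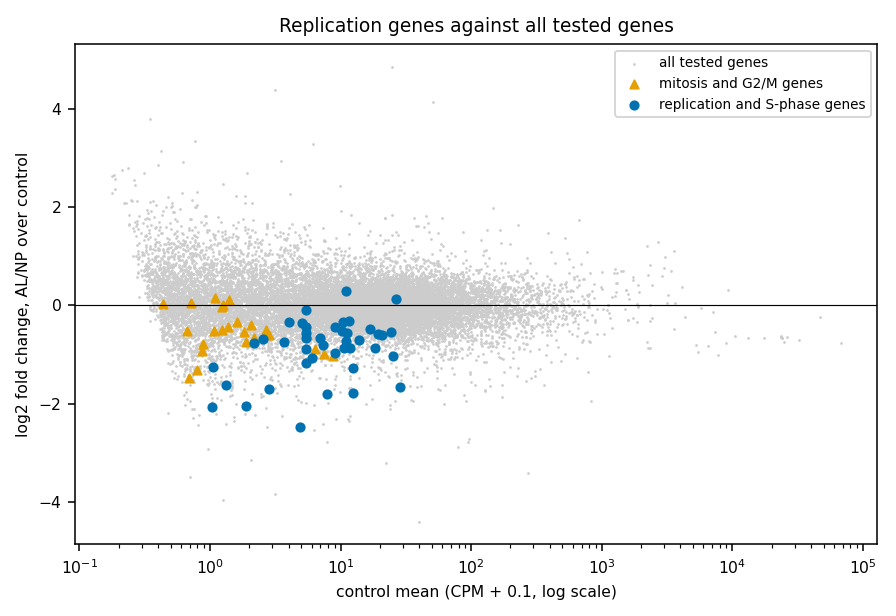
Log2 fold change of AL/NP over control (vertical axis) against the control mean in CPM + 0.1 (log axis) for all 15939 tested genes (grey), the 42 replication genes (blue circles) and 25 mitosis and G2/M genes (orange triangles). The blue circles lie below 0 in 40 of 42 cases, at control means between 0.936 and 28.2 CPM.

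Markers of cell types moved in both directions in the same libraries. Macrophage markers were higher in 9 of 10 cases (median 1.09). Of these, 8 were higher at an unadjusted p of 0.05 (edgeR), against 9.37% of all tested genes. Summed levels of the macrophage markers were 460.2 to 781 CPM with AL/NP and 232 to 375 CPM in controls, and Mpeg1, Cd5l and Laptm5 led them. All 5 tested neutrophil markers of 8 were higher (median 1.30), with summed levels of 34.6 to 75.8 CPM and 18.8 to 33.8 CPM. Hepatocyte markers were lower in 6 of 8 cases (median -0.44), with summed levels of 53640 to 62373 CPM and 62497 to 81142 CPM. Averaged over these markers, log2 CPM relative to the control mean overlapped, at -0.38 to -0.15 with AL/NP and -0.16 to 0.25 in controls. Groups overlapped in 4 hepatocyte markers, and were apart in 2 that were lower and 2 that were higher. Ttr and Serpina1a had the smallest p-values of that list, at -0.82 and 0.70.

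Neutrophil precursor genes Mpo and Elane and the marker Ly6g were too low to test. Markers of the remaining cell types were mixed. B cell markers were lower in 5 of 6 cases, T cell markers higher in 6 of 7, cholangiocyte markers higher in 6 of 6, endothelial markers higher in 4 of 6, and stellate cell and fibroblast markers in 4 of 8. In these lists at most 1 marker each had an unadjusted p under 0.05 (edgeR), among them Cd3e of T cells at 3.35. Of 8 erythroid precursor markers, 4 were too low to test, among them Gata1 with 6 counts with AL/NP and 1 in controls. Of the 4 tested, 3 were below 0 and 1 was higher, with an unadjusted p under 0.05 (edgeR). The median of these 4 was -0.09. The part of these cell types in the lower replication genes was not tested.

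**Figure D5:**
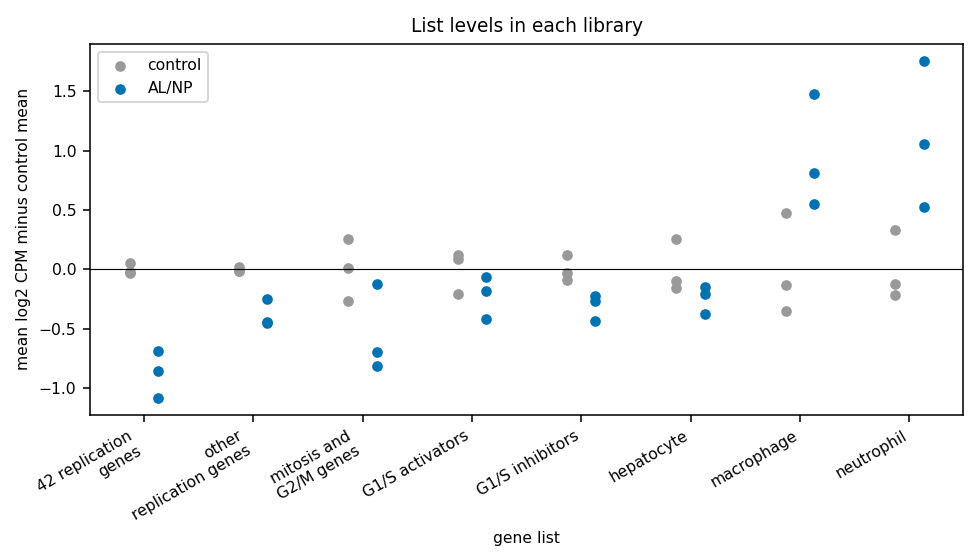
Mean log2 CPM minus the control mean for 8 gene lists (horizontal axis), with 1 point per library (grey, control; blue, AL/NP; n = 3 each). The 42 replication genes lie between -1.08 and -0.69 with AL/NP, apart from the controls, and the mitosis and G2/M genes overlap the controls.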

How the data were processed

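RNA from whole liver was measured by poly(A) RNA sequencing in 6 libraries, 3 per group, with a strand-marking kit per the labels' protocols. The authors deposited whole-number read counts per Ensembl gene without normalization. Per the submitters' processing notes they used GRCm38, STAR 2.6.1a, featureCounts and DESeq2 1.26.0; strand setting, annotation release and treatment of multiply matching reads are not given in the sources used here. Of 41388 identifiers 40254 had a symbol. Coordinates and exon lengths come from GENCODE M21 (GRCm38).

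Groups were compared with the edgeR 4.0.16 quasi-likelihood test (R 4.3.3, robust, TMM, filterByExpr with minimum count 10), without a replicate block, and adjusted by Benjamini-Hochberg over 15939 genes at 0.05. SE is the absolute log2 fold change over the square root of F. The alternatives included DESeq2 1.42.0 and limma-voom (limma 3.58.1). The edgeR script was tested on simulated data. Exons of 16 members overlap a gene on the opposite strand.

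Genes were named by rule: in each of 8 roles the 3 members with the smallest p, every called member, every member against the median's direction, and 2 to 4 leading genes of each other list, fewer in the marker lists. Members and lists were chosen with earlier results of these data known.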

Additional observations from a re-analysis of the deposited data

How the results depend on the processing

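The tested members kept a negative median log2 fold change under all 15 alternatives, from -0.92 to -0.58. It was -0.58 when counts were scaled by library totals alone, which moved the median of all tested genes to 0.13. Members called lower numbered 1 in the edgeR fit reported, 0 with library totals, 0 with at least 50 counts in 3 libraries (38 members tested), 0 without robust estimation, 2 with the replicate number as a block, 16 with no filter beyond 1 count and 21 with DESeq2; leaving out each library gave 0 to 0. Genes of the whole table called lower (3) and higher (10) numbered 0 and 0 with library totals, 0 and 0 with at least 50 counts, 0 and 0 without robust estimation, 373 and 374 without a filter, and 413 and 431 with DESeq2; limma-voom called 1 lower, the replicate block 9 lower, and leaving out each library gave 0 to 2 lower and 0 to 3 higher. With library totals 18 members and 560 genes were lower at an unadjusted p of 0.05, against 31 and 1634. The causes were not tested. The log2 fold change of Pcna was -0.0113 without control replicate 3, and 0.193 at most when each library was left out. That of Dtl was -2.31 with library totals (adjusted p = 0.0968, edgeR) and -2.48 with at least 50 counts (0.0553); over its 15 alternatives the adjusted p ranged from 9.96e-12 to 0.196. The replicate numbers gave no pairing: deviations of same-numbered libraries correlated at -0.05, 0.04 and 0.08 across genes, so the block result does not describe pairs. Depth limited Rmi2, Ccne2, Orc1 and Clspn, with 22 to 43 counts over the AL/NP libraries.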

Other observations

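Subunits of one replication complex did not share one value. These genes were chosen after their values were seen, and the differences between subunits were not tested. In DNA polymerase epsilon the log2 fold change was -1.80 for the catalytic subunit Pole, -0.56 for Pole2, -0.14 for Pole3 and 0.41 for Pole4. In polymerase delta it was -0.60 for the catalytic Pold1, 0.26 for Pold2, -0.09 for Pold3 and 0.22 for Pold4. The primase subunits were at -0.70 (Prim1) and 0.00 (Prim2), and those of the polymerase alpha they work with at -0.35 (Pola1) and -0.15 (Pola2). In the origin recognition complex Orc1 was at -1.25 and Orc6 at -0.66, while Orc2, Orc3, Orc4 and Orc5 were at 0.16, -0.29, -0.53 and 0.03. The GINS subunits ran from -0.69 (Gins2) and -0.67 (Gins1) to -0.25 (Gins3) and -0.05 (Gins4). The clamp loader ran from -0.44 (Rfc4) to 0.06 (Rfc2), and the single-strand binding complex from -0.50 (Rpa3) to 0.05 (Rpa2).

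Chek1, the checkpoint kinase that Clspn activates, measured 9.25 CPM in AL/NP replicate 1 and 2.32 to 4.81 CPM in the other 5 libraries, and was likewise picked after its values were seen. The components of the Dtl ubiquitin ligase Cul4a, Cul4b and Ddb1 were at -0.10, 0.12 and 0.29, with adjusted p-values of 0.748, 0.752 and 0.427 (edgeR).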
